A study of Mus musculus with 44 samples.

Results

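AMP-activated protein kinase (AMPK) is assembled from 1 catalytic α, 1 scaffolding β and 1 regulatory γ subunit, and each subunit is made from more than 1 gene. The 9 genes described here were chosen by name from the 38202 genes of the count table. They are the α subunits Prkaa1 (α1) and Prkaa2 (α2), the β subunits Prkab1 (β1) and Prkab2 (β2), the γ subunits Prkag1 (γ1), Prkag2 (γ2) and Prkag3 (γ3), and the upstream kinases Stk11 (LKB1) and Camkk2. Levels were measured by RNA-Seq of poly(A)-selected RNA from liver and skeletal muscle of 11 wild-type (WT) and 11 Slc16a13 knockout (KO) male mice. All mice were 20 weeks old, were on the C57BL/6N background, had received high-fat diet (HFD) for 15 weeks and were killed after an overnight fast. The KO mice lack the promoter and the first exons of Slc16a13, a member of the monocarboxylate transporter family, in every cell through a CRISPR/Cas9 deletion, and WT littermates served as controls. Liver and muscle were taken from the same animals, which gave 44 libraries in 4 groups of 11. No group received a normal diet and no mouse was fed before sampling, so levels refer to fasted mice on HFD throughout.

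AMPK senses falling cellular energy. AMP and ADP bind the γ subunit, and an upstream kinase then phosphorylates the activation loop of α, after which the complex slows lipid and glycogen synthesis and promotes fatty acid oxidation. LKB1 is the main upstream kinase in liver and muscle, and CaMKK2 acts when calcium rises. The β subunit holds the complex together and carries a carbohydrate-binding module. The study examined AMPK as an energy sensor in these mice. The question addressed with the present values is which isoform transcripts liver and muscle contained, and whether these differed between genotypes. RNA levels measure neither protein nor phosphorylation.

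The libraries held 20150712 to 35218243 reads on genes. In liver, 99 to 302 reads per library lay on Slc16a13 in WT mice and 0 to 8 in KO mice. In muscle, 4 to 22 reads lay on Slc16a13 in WT libraries and 11 to 40 in those labelled KO, which goes against the label. Reads were given per gene and the deletion spares part of it. The latter are therefore called muscle libraries labelled KO. Each tissue carried its own markers. The sum of 6 hepatocyte markers (Alb, Apoa1 and others) was 84046 to 115690 CPM (counts scaled to library size) in liver and 4.18 to 59.8 CPM in muscle labelled KO, against 4.16 to 13.97 CPM in WT muscle. In muscle the largest part was Cyp2e1, at 3.61 to 57.5 CPM in libraries labelled KO and 3.78 to 12.7 CPM in WT. Alb was at 0.43 to 5.55 and 0.21 to 4.32 CPM there, and Apoa1, Ttr, Serpina1a and Fgb reached at most 1.14 CPM. The sum of 6 myofibre markers was 70760 to 91641 CPM in muscle and 0.508 to 28.4 CPM in liver. The muscles were of fast type, with the slow fibre markers summing to a median of 2.80 CPM in WT and 2.79 CPM in muscle labelled KO. A further difference between libraries bears on the livers. In 4 of 11 KO livers, from mice 532, 583, 602 and 611, long genes were lower and short genes higher than in the mean liver, with a slope of library level against log2 gene length of -0.53, -0.25, -0.42 and -0.08. These 4 are called the low-slope livers. Results that these libraries move are given with and without these mice.

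The promoter sequences of Prkag3, Prkab2 and Prkaa2 are shown because these were the members called higher in muscle. All 9 members were found by symbol in the RefSeq promoter table (GRCm38.p6), and the 250 bases before the start site are given, 5′ to 3′. The letters in capitals mark the E-box CAGCTG, a form of the CANNTG sequence recognised by myogenic factors such as MyoD. Prkag3 lies on the minus strand with this stretch at chr1:74748956-74749205, Prkab2 on the plus strand at chr3:97657962-97658211 and Prkaa2 on the minus strand at chr4:105109899-105110148.
Prkag3: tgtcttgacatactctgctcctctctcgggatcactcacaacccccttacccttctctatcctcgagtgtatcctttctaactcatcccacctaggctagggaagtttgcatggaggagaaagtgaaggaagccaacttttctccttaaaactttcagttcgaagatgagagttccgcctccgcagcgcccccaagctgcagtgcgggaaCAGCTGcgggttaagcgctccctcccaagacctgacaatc
Prkab2: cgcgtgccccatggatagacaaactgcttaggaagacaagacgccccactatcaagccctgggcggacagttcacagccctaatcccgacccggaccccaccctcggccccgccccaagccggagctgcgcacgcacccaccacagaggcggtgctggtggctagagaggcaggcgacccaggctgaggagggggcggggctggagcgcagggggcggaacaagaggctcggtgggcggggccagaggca
Prkaa2: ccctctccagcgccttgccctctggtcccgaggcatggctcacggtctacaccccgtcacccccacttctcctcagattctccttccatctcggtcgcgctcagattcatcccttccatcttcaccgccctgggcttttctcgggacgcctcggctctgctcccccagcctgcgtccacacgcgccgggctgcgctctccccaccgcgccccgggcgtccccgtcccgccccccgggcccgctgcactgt
Prkag3 was the only member with CAGCTG in the stretch searched, starting at base -40 from the start site. The same 6 letters, which read alike on both strands, occurred in 13% of 32851 promoter windows of this length. The broader CANNTG, which includes CAGCTG, occurred in 66.2% of windows. Among the members, Prkag3 and Prkag1 held 1, Stk11 held 2 and the 3 windows of Prkag2 held 1, 3 and 2. Prkab2, Prkaa2, Prkaa1, Prkab1 and Camkk2 held 0. None of the members' windows held TATAAA (12.4% of all windows) or the MEF2 motif (1.69%) on either strand. The Prkag3 window held 9 CpG dinucleotides and those of Prkab2 and Prkaa2 held 18 and 24, against a median of 6 over all windows. Of the other members, Prkaa1 held 45, Camkk2 32, Prkab1 and Stk11 24 each, and Prkag1 12. The 3 windows of Prkag2 held 23, 4 and 34. These letters are a description of the windows, and binding was not measured.

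The α subunits were examined first. In WT mice, Prkaa2 was measured at 7.20 to 8.67 RPKM in liver (median 8.02, n = 11) and at 32.9 to 40.8 RPKM in muscle (median 37.3, n = 11). The ranges lay far apart. Prkaa2 was 4.54-fold higher in muscle, a log2 fold change of 2.18 (standard error, SE, 0.12, adjusted p = 5.5e-21, edgeR quasi-likelihood test). Prkaa1 was measured at 2.28 to 2.83 RPKM in WT liver (median 2.73) and at 3.02 to 3.98 RPKM in WT muscle (median 3.603). The ranges did not overlap, but the difference was small, at 1.26-fold or 0.33 on the log2 scale (SE 0.08, adjusted p = 1.7e-04). It depended on the handling of gene length, since with each library's trend on gene length removed it was -0.07 (adjusted p = 0.15). In mice carrying the KO allele the same order was seen. KO livers held 2.63 to 9.77 RPKM of Prkaa2 (median 7.24), against 32.98 to 41.9 RPKM in muscle labelled KO (median 39.2), a log2 difference of 2.52 (SE 0.13, adjusted p = 4.2e-23), which was 2.27 (SE 0.06) without the low-slope mice. Prkaa1 in KO livers was 1.34 to 2.97 RPKM (median 2.56), against 3.05 to 4.27 RPKM in muscle labelled KO (median 3.72), a log2 difference of 0.56 (SE 0.08, adjusted p = 1.4e-08). This value was 0.40 (SE 0.06) without the low-slope mice and 0.03 with the trend on gene length removed (adjusted p = 0.51).

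α2 was thus the more abundant α transcript per length in both tissues. Its share of the α RPKM was 72.4 to 76.5% in WT liver (median 75.1%, SD 1.07, n = 11) and 90.1 to 92.6% in WT muscle (median 91.4%, SD 0.903, n = 11). In KO livers it was 63.5 to 76.7% (median 73.3%), and in muscle labelled KO 88.5 to 92.8% (median 91.5%). The 2 lowest livers, at 63.5 and 66.1%, came from the low-slope mice 583 and 532. Summed over both genes, α transcripts were at a median of 10.7 RPKM in WT liver and 40.5 RPKM in WT muscle.

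The β subunits gave the clearest switch. Prkab2 was low but detected in every liver, at 0.625 to 1.0 RPKM in WT mice (54 to 142 reads per library). It reached 126 to 158 RPKM in WT muscle (median 152, 15991 to 23183 reads). This was a 178-fold difference, or 7.48 on the log2 scale (SE 0.11, adjusted p = 1.6e-44). In KO livers Prkab2 was 0.458 to 0.963 RPKM, against 117 to 177 RPKM in muscle labelled KO, a log2 difference of 7.79 (SE 0.11, adjusted p = 7.4e-45). Prkab1 went the other way. It was measured at 9.69 to 13.4 RPKM in WT liver (median 11.1) and 5.64 to 6.76 RPKM in WT muscle (median 6.17). The ranges did not overlap, and the level was 2.03-fold higher in liver (log2 fold change, muscle minus liver, -1.02, SE 0.07, adjusted p = 7.0e-19). KO livers held 8.23 to 13.7 RPKM of Prkab1 and muscle labelled KO 4.75 to 7.28 RPKM (log2 difference -1.12, SE 0.07, adjusted p = 2.7e-20). Prkab1 lies at the 2-fold limit used for calls, and 5 of 9 alternative settings placed the WT difference under it, with log2 values between -0.67 and -0.997.

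The β2 share of β RPKM was accordingly 5.57 to 8.22% in WT liver (median 6.96%, SD 0.864) and 95.5 to 96.4% in WT muscle (median 96.0%, SD 0.295). KO livers lay at 3.71 to 9.58% (median 5.10%) and muscle labelled KO at 94.7 to 97.0% (median 96.2%). Every library of a tissue lay far from every library of the other. β transcripts summed to a median of 11.8 RPKM in WT liver and 157 RPKM in WT muscle. Per length, Prkab2 had the highest level of the 9 members in muscle and the second lowest in liver.

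The γ subunits bind AMP, ADP and ATP. Prkag3, the isoform known from fast muscle, gave 0 to 6 reads in WT livers, with 6 of 11 at 0, and 1473 to 2643 reads in WT muscles. Over the group, WT livers summed to 20 reads (0.072 CPM, exact Poisson 95% interval 0.044 to 0.111) and WT muscles to 22527 reads (77.0 CPM, interval 76.0 to 78.0). The ratio of these sums was 1069 (exact 95% interval 692 to 1749.9), an interval that covers counting error only. In KO livers 7 reads were counted in all, with 8 of 11 libraries at 0, and 22036 in muscle labelled KO, a ratio of 3012 (interval 1462 to 7492). The fitted log2 fold changes, 9.93 in WT and 11.20 in KO mice, depend on the small count added to the livers at 0. The livers with the highest myofibre marker sums, of mice 516 (WT, 28.4 CPM) and 532 (KO, 9.75 CPM), had 0 and 2 reads on Prkag3. The same livers had 9 and 8 reads on Ampd1, the muscle AMP deaminase, where every other liver had 0 or 1. The most Prkag3 reads, 6, were in the liver of mouse 612 (WT, 1.62 CPM of myofibre markers). The part of muscle RNA in the liver reads was not tested.

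Prkag1, the widely expressed γ isoform, was similar in both tissues. It was measured at 18.4 to 22.96 RPKM in WT liver (median 20.8) and 22.1 to 26.9 RPKM in WT muscle (median 25.03). The ranges overlapped at their edges, and the difference of 1.17-fold was larger than the spread between mice (log2 fold change 0.23, SE 0.05, adjusted p = 1.7e-05). In KO mice the difference was 0.08 (SE 0.05, adjusted p = 0.087), with 18.9 to 24.7 RPKM in liver and 22.5 to 26.7 RPKM in muscle labelled KO. It passed the threshold in 7 of 9 alternative settings, among them without the 4 low-slope mice (0.19, adjusted p = 1.1e-04). It did not pass with limma-voom or with the animal as replicate block, which pairs the tissues. Prkag2 was higher in liver. WT livers held 8.86 to 12.9 RPKM (median 10.8) and WT muscles 5.15 to 7.91 RPKM (median 7.13), without overlap. On counts the liver level was 2.44-fold higher (log2 fold change, muscle minus liver, -1.28, SE 0.08, adjusted p = 7.5e-20). A fold on counts takes no account of transcript length, which differed between tissues for Prkag2, as described below. Per length, the WT medians lay less than 2-fold apart. In KO livers Prkag2 was 6.17 to 13.9 RPKM, and in muscle labelled KO 5.43 to 8.45 RPKM (log2 difference on counts -1.13, SE 0.08, adjusted p = 5.8e-18). The medians there, 10.7 and 6.27 RPKM, also lay less than 2-fold apart.

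γ1 formed the larger part of γ RPKM in liver, with 61.8 to 69.2% in WT mice (median 65.4%, SD 2.54), and γ2 most of the rest, with 30.5 to 38.2% (median 34.4%, SD 2.64). In WT muscle, γ3 was the largest part at 46.3 to 57.8% (median 53.7%, SD 3.96), followed by γ1 at 32.4 to 44.8% (median 37%, SD 3.85) and γ2 at 7.98 to 11.98% (median 9.99%, SD 1.31). The order of isoforms was the same in KO mice. KO livers had a median of 65.5% γ1 and 34.5% γ2, and muscles labelled KO had 52.8% γ3, 36.6% γ1 and 9.79% γ2. The highest γ1 shares in KO livers, 79.9 and 72.6%, and the lowest γ2 shares, 19.96 and 27.4%, belonged to the low-slope livers 532 and 602. The 7 KO livers that were not low-slope had 61.1 to 66.9% γ1 and 32.95 to 38.9% γ2. Summed γ transcripts were at a median of 31.6 RPKM in WT liver and 66.6 RPKM in WT muscle.

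**Figure D1:**
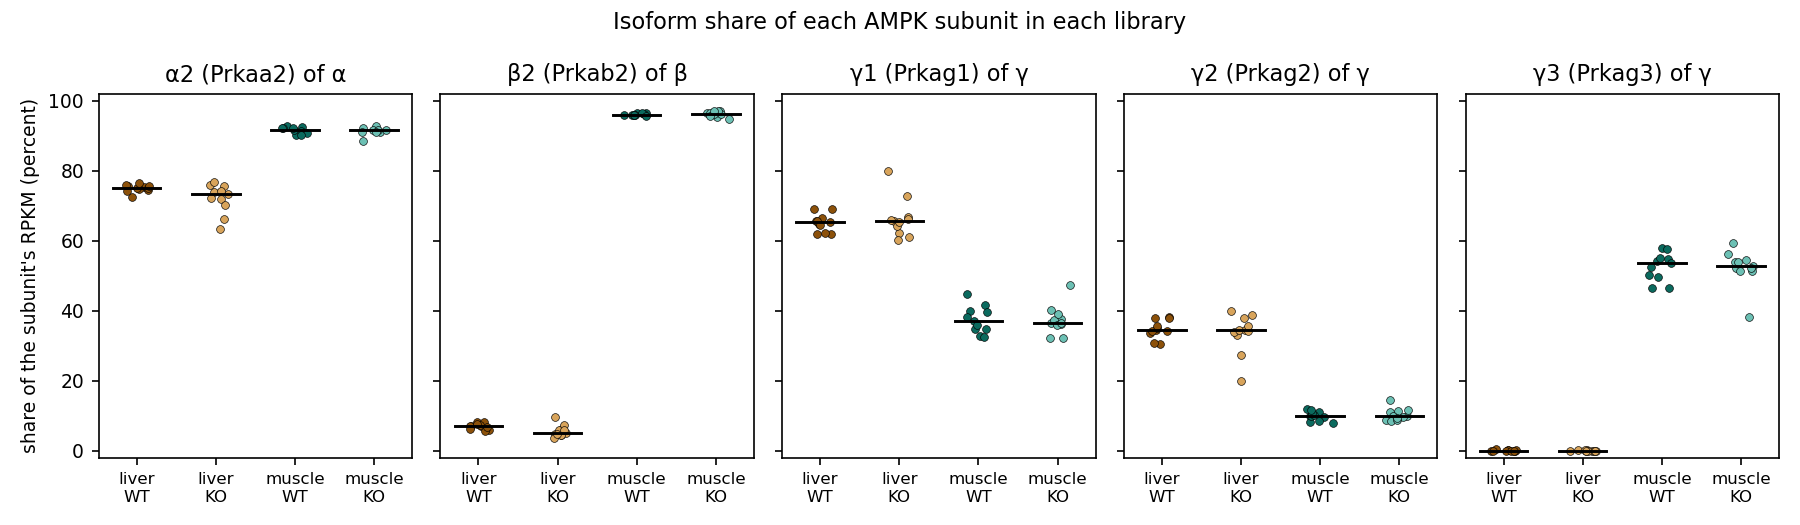
Share of each isoform in the RPKM of its subunit (y axis, percent), with a point per library and a bar at the median of 11 libraries, for liver and muscle of WT and KO mice (muscle KO means the muscle libraries labelled KO). β2 lies at 3.71 to 9.58% in all livers and at 94.7 to 97.0% in all muscles, and γ3 is at or near 0% in liver and at 38.2 to 59.2% in muscle.

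The length of Prkag2 used for RPKM was itself not constant. Dividing reads by RPKM and library size gives the transcript length that links both deposited values. For Prkaa1, Prkaa2, Prkag1 and Camkk2 this length was the same in all libraries, with a highest value at most 1.00183 times the lowest. For Prkag2 it was 2129 to 2671 bases in WT liver (median 2469) and 1482 to 2015 bases in WT muscle (median 1712). In KO livers it was 2057 to 2589 bases, and in muscle labelled KO 1665 to 1977 bases. Within each genotype the tissues did not overlap. Prkag2 has 3 start sites in the RefSeq promoter table and 10 transcripts in GENCODE M21, between 211 and 3331 bases long where coding. How the authors set the length per library is not given in the sources used here. Prkab1 varied as well, from 1502 to 1920 bases in WT liver and from 1413 to 1749 bases in WT muscle, with overlap. Prkab2 lay at 4280 to 5006 bases in WT liver (median 4452) and 4443 to 5010 bases in KO liver (median 5005). This difference enters the RPKM of Prkab2 and the β2 share of these livers. Stk11 lay at 1233 to 1437 bases over all libraries. With 1 fixed length per gene, the γ2 share moved to 38.8% in WT liver and 8.55% in WT muscle, which left the order of γ isoforms as it was.

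**Figure D2:**
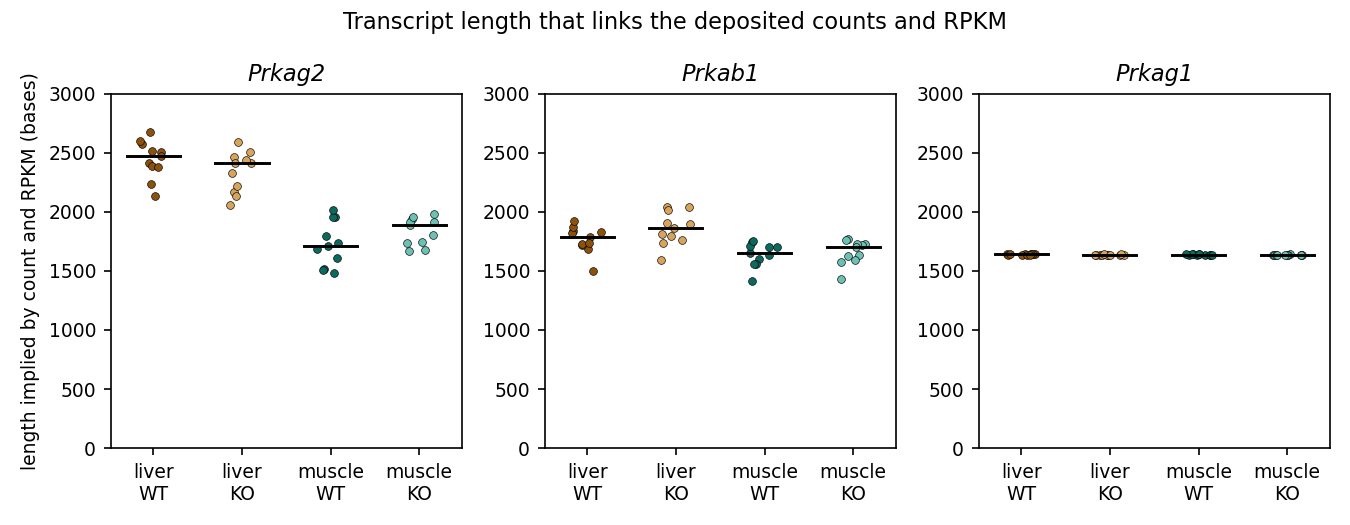
Transcript length in bases (y axis, from 0) that links the deposited count and RPKM of Prkag2, Prkab1 and Prkag1, with a point per library and a bar at the median. Prkag2 lies at 2057 to 2671 bases in livers and 1482 to 2015 bases in muscles, whereas Prkag1 stays between 1637 and 1639 bases.

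The upstream kinases were opposed to each other. Stk11 encodes LKB1, which phosphorylates AMPK and the AMPK-related kinases. It was measured at 43.7 to 57.4 RPKM in WT liver (median 50.8) and 73.0 to 83.2 RPKM in WT muscle (median 77.9). The groups did not overlap, and muscle was 1.52-fold higher (log2 fold change 0.61, SE 0.08, adjusted p = 1.1e-08). In KO mice the ranges overlapped, with 39.2 to 79.6 RPKM in liver and 67.3 to 82.8 RPKM in muscle labelled KO (log2 difference 0.35, SE 0.08, adjusted p = 1.9e-04). Only low-slope livers reached into the muscle range, since the other 7 KO livers held 39.2 to 57.1 RPKM, and without the low-slope mice the log2 difference was 0.58 (SE 0.07). Camkk2, the calcium-dependent upstream kinase, was low in both tissues. It was measured at 1.33 to 1.95 RPKM in WT liver (162 to 252 reads) and 0.465 to 0.809 RPKM in WT muscle (57 to 126 reads). It was 2.80-fold higher in liver (log2 fold change, muscle minus liver, -1.49, SE 0.12, adjusted p = 4.4e-16). KO livers held 1.15 to 2.03 RPKM and muscles labelled KO 0.391 to 0.891 RPKM, a log2 difference of -1.53 (SE 0.12, adjusted p = 1.7e-16). In bulk tissue, fewer cells of a type and less RNA per cell cannot be told apart.

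**Figure D3:**
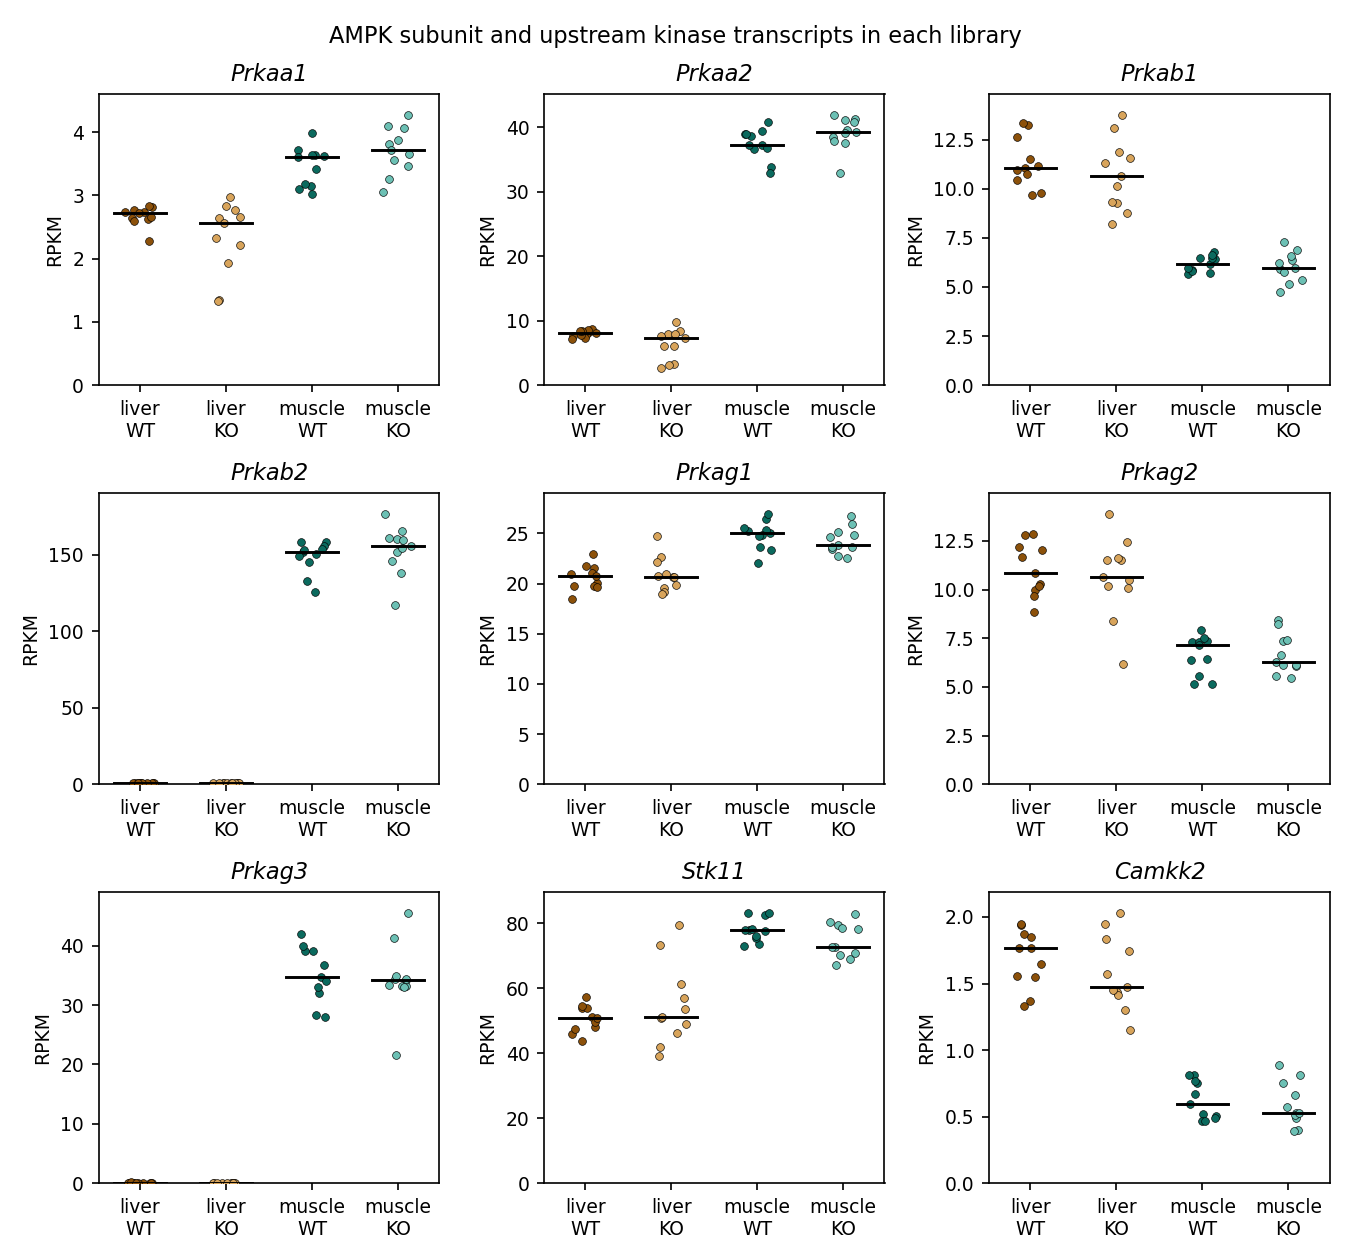
RPKM (y axis, linear and starting at 0, scaled per gene) of the 9 genes in each of 44 libraries, with a point per library and a bar at the median of 11. Prkaa2, Prkab2 and Prkag3 lie higher in every muscle than in any liver, Camkk2 and Prkab1 lie lower, and in the KO livers single libraries stand apart for Prkaa1, Prkaa2 and Stk11.

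Calls across all genes put these values in context. A gene was called where the adjusted p was under 0.05 and the difference on counts at least 2-fold. In WT mice 3 of the 9 members were called higher in muscle (Prkaa2, Prkab2, Prkag3), where 27.6% of the 14739 genes tested were called in this direction. Another 3 were called higher in liver (Prkab1, Prkag2, Camkk2), against 29% of all genes. Of these, Prkab1 and Prkag2 lay less than 2-fold apart by median RPKM. In KO mice the same 3 and 3 genes were called, against 27.8% and 28.9% of all genes. Liver and muscle differ in most genes, with 88% of all genes past the adjusted p alone in WT mice and 88.7% in KO mice, so these counts are near those of genes at large. The median log2 difference of the members was 0.33 in WT and 0.35 in KO mice, against -0.005 and -0.01 over all genes.

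The pairs of tissues from 1 mouse gave the same picture. The difference in log2 CPM, muscle minus liver, was above 0 in 11 of 11 WT and 11 of 11 KO mice for Prkaa1, Prkaa2, Prkab2 and Prkag3. It was above 0 in 0 of 22 mice for Prkab1, Prkag2 and Camkk2. Prkag1 was higher in muscle in 11 WT and 8 KO mice, and Stk11 in 11 WT and 10 KO mice. The exceptions for Prkag1 were the low-slope mice 532, 583 and 602 (-0.09, -0.02 and -0.17). The exception for Stk11 was the low-slope mouse 602 (-0.17). Prkaa2 was 1.91 to 2.36 higher in WT mice and 2.08 to 3.88 higher in KO mice on this scale. The low-slope mice 532, 583 and 602 gave 3.88, 3.40 and 3.37, and the other KO mice 2.08 to 2.59. For Prkag3 the size of the difference depends on the small count added, since 6 WT and 8 KO livers had 0 reads.

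**Figure D4:**
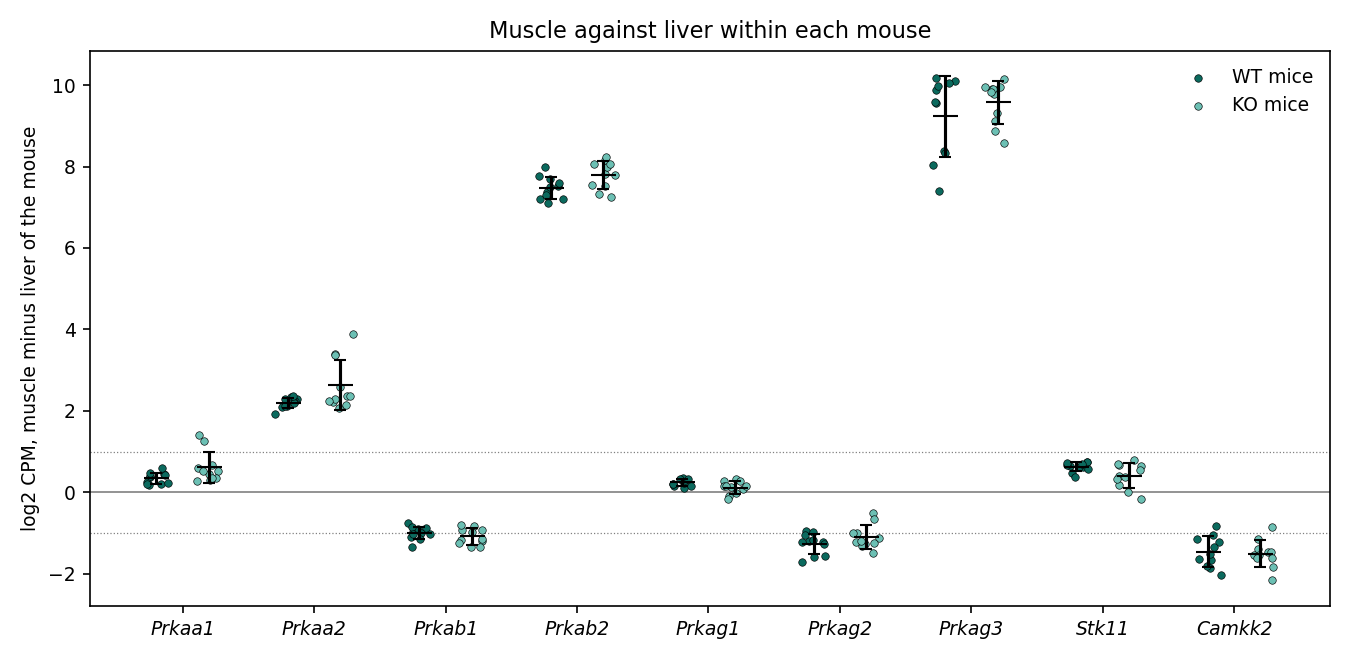
Difference in log2 CPM between muscle and liver of each mouse (y axis), with a point per mouse, 11 WT and 11 KO, and the mean with SD as bars. The dotted lines mark a 2-fold difference in either direction. Prkab2 and Prkag3 lie above 7 in every mouse. The Prkag3 values depend on the small count added, as 6 WT and 8 KO livers had 0 reads. The 3 KO mice that stand above the others for Prkaa2 are the low-slope mice 532, 583 and 602.

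In levels per length, the order of members differed between tissues. In WT liver it ran Stk11, Prkag1, Prkab1, Prkag2, Prkaa2, Prkaa1, Camkk2, Prkab2 and Prkag3, from the highest median RPKM to the lowest, and only Prkab1 and Prkag2 overlapped with their neighbour. In WT muscle it ran Prkab2, Stk11, Prkaa2, Prkag3, Prkag1, Prkag2, Prkab1, Prkaa1 and Camkk2, with overlap between Prkaa2 and Prkag3 and between Prkag2 and Prkab1. In KO livers Prkag2 and Prkab1 changed places, at medians of 10.7 and 10.6 RPKM, which is within their spread. There Prkaa2 also overlapped with Prkab1 and Prkaa1, and Prkaa1 with Camkk2. Muscle labelled KO had the order of WT muscle, with Prkag3 also overlapping Prkag1.

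Between genotypes, no member was called in liver by edgeR's quasi-likelihood test. Of the 9 members 8 passed the filter on low counts, and Prkag3 did not. At an adjusted p under 0.05, 0 of 8 were called, against 0.0231% of the 13005 genes tested. DESeq2 and limma-voom also called 0 members, where they called 6 and 3 of all genes tested. At an unadjusted p under 0.05 edgeR found 1 member, Prkab2, where 12.9% of all genes lay under this value. DESeq2 and limma-voom found 1 and 2 members, against 1966 and 1652 of the 13005 genes tested. Prkab2 was at 0.625 to 1.0 RPKM (median 0.88) in WT livers and at 0.458 to 0.963 RPKM (median 0.604) in KO livers. The length behind these RPKM differed, with medians of 4452 bases in WT and 5005 bases in KO livers. Without length, the medians were 4.16 and 3.02 CPM. The log2 difference on counts was -0.30 (95% interval -0.52 to -0.08, adjusted p = 0.38). The groups overlapped. Without the 4 low-slope mice the value was -0.21 (interval -0.45 to 0.03, adjusted p = 0.999), and 0 members had an unadjusted p under 0.05, against 2.96% of all genes.

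Prkaa2 was spread widely among KO livers. Prkaa2 was 2.63, 3.35 and 3.14 RPKM in the KO livers of mice 532, 583 and 602 (588, 734 and 688 reads), below all WT livers, and 6.02 RPKM in mouse 611. The other 7 KO livers held 6.07 to 9.77 RPKM (median 7.87), around the WT median of 8.02. The log2 fold change over all livers was -0.29 (95% interval -0.62 to 0.04, adjusted p = 0.39), and -0.01 without the low-slope mice (interval -0.14 to 0.12). Prkaa1 followed the same libraries, with 1.34 to 2.33 RPKM in the 4 low-slope livers and 2.21 to 2.97 RPKM in the other KO livers. Its log2 fold change was -0.15 (interval -0.37 to 0.06, adjusted p = 0.43), and 0.02 without them. Stk11 stood in the opposite order, with 79.6, 61.5 and 73.3 RPKM in mice 532, 583 and 602 against 39.2 to 57.1 RPKM in the other 7 KO livers and 43.7 to 57.4 RPKM in WT. Its log2 fold change was 0.15 (interval -0.06 to 0.37, adjusted p = 0.44), and -0.06 without the low-slope mice. Prkaa2 is the longest of the members by implied length (7969 bases) and Stk11 the shortest (1388 bases). Other short members went in either direction. Prkag1 (1638 bases) had medians of 21.6 RPKM in low-slope and 19.9 RPKM in other KO livers. Prkab1 (1728 bases) had 9.73 and 11.6 RPKM, and Prkag2 (2036 bases) 9.5 and 11.5 RPKM. With the trend on gene length removed in each library, Prkaa2 was at -0.13 (adjusted p = 0.60) and Stk11 at 0.01 (adjusted p = 0.96). The part of gene length in the level of each member was not tested.

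**Figure D5:**
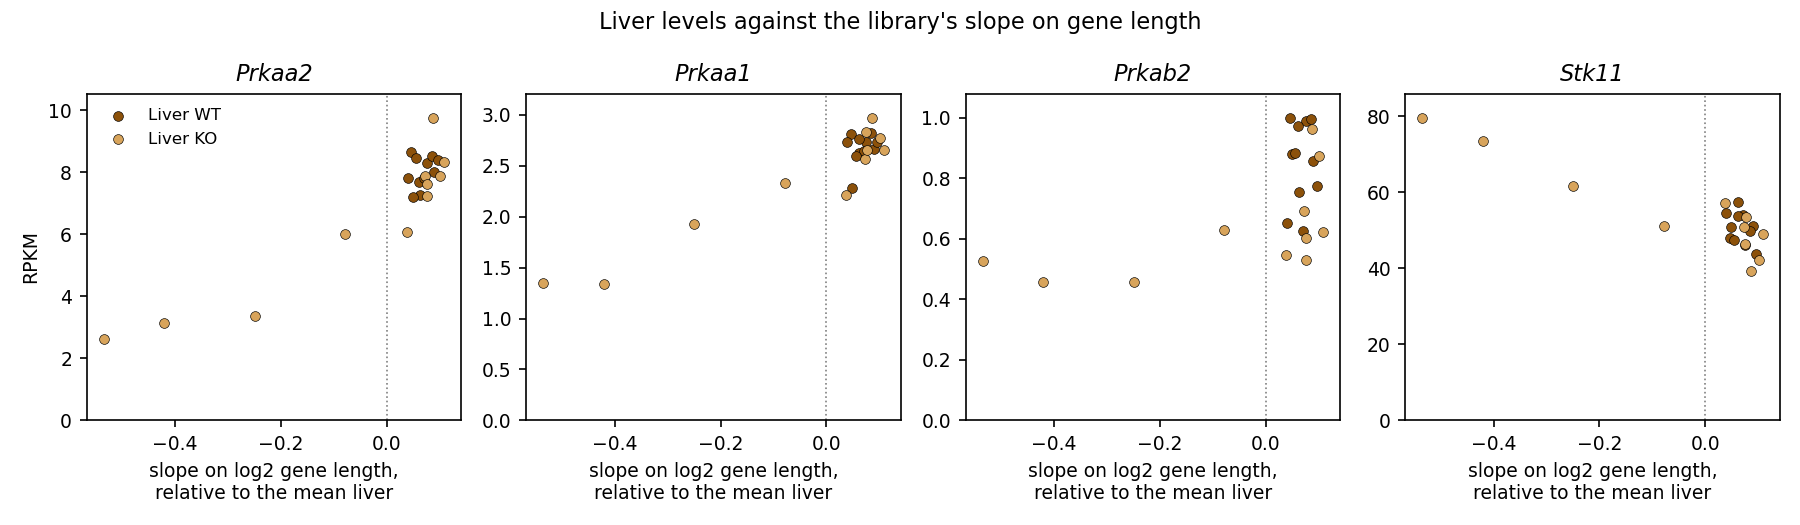
RPKM (y axis, starting at 0) of Prkaa2, Prkaa1, Prkab2 and Stk11 in 22 livers against the slope of the library's log2 CPM on log2 gene length, relative to the mean liver (x axis). The KO livers left of the dotted line at 0 are those of mice 532, 583, 602 and 611, and the lowest Prkaa2 values (2.63 to 3.35 RPKM) and the highest Stk11 values (61.5 to 79.6 RPKM) are among them.

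The remaining members had intervals that covered 0 in liver. Prkab1 differed by 0.05 (95% interval -0.10 to 0.20), Prkag1 by 0.09 (interval -0.03 to 0.20), Prkag2 by -0.06 (interval -0.23 to 0.11) and Camkk2 by -0.05 (interval -0.24 to 0.14) on the log2 scale. The signs of these small values turned in 1 or 2 of 7 alternative settings for each gene. Prkag3 gave 20 reads in all WT livers and 7 in all KO livers, and with no filter on low counts its log2 difference was -1.35 (95% interval -3.08 to 0.37, adjusted p = 0.47). Markers of some other liver cells were also spread more widely in KO livers. The macrophage and Kupffer list was at 183 to 541 CPM, against 204 to 277 CPM in WT livers. The endothelial list was at 63.4 to 126 CPM, against 103 to 118 CPM in WT livers. The stellate and fibroblast list went the other way, at 22.3 to 90.1 CPM in KO and 27.99 to 134 CPM in WT livers. The part of these cells in the member values was not tested.

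In muscle, all 9 members passed the filter and 0 were called by edgeR between WT libraries and those labelled KO (also 0 by DESeq2 and limma-voom), against 0.00754% of the 13266 genes tested. At an unadjusted p under 0.05 edgeR, DESeq2 and limma-voom each found 0 members, against 8.64% of all genes by edgeR. The log2 fold changes lay between -0.09 for Stk11 (95% interval -0.20 to 0.01) and 0.10 for Prkag2 (interval -0.05 to 0.24). Prkaa2 was at 0.05 (interval -0.05 to 0.15), Prkab2 at 0.02 (interval -0.11 to 0.15) and Prkag3 at -0.05 (interval -0.26 to 0.16). A 2-fold difference lay outside the interval of every member.

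Whether the genotype difference was the same in both tissues was tested directly. By edgeR, DESeq2 and limma-voom 0 of 9 members were called. Of the 14739 genes tested, edgeR called 0.00678%, DESeq2 called 44 genes and limma-voom called 1. At an unadjusted p under 0.05 edgeR found 4 members (Prkaa1, Prkab2, Prkag1, Stk11), where 16.2% of all genes lay under this value. DESeq2 found 5 members, against 2495 of the 14739 genes, and limma-voom found 4, against 2261. The difference, muscle minus liver, was 0.31 for Prkab2 (95% interval 0.07 to 0.56, adjusted p = 0.28), 0.23 for Prkaa1, -0.14 for Prkag1 and -0.26 for Stk11. Without the 4 low-slope mice 0 members had an unadjusted p under 0.05, against 532 of the 14900 genes tested there. With the trend on gene length removed there were also 0 members, against 1631 of 14739 genes.

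Within muscle, single libraries differed in members and in fibre type markers together. The libraries with the lowest Prkag3 were those of mouse 611 (labelled KO, 47.4 CPM) and mouse 624 (WT, 61.3 CPM). The same muscles had the lowest Prkab2, at 569 and 611 CPM, and the lowest Myh4, the myosin of fast glycolytic fibres, at 55005 and 61938 CPM. They had the highest Myh1, at 8118 and 7745 CPM, and were among the 3 muscles with the highest Myh2, the myosin of fast oxidative fibres, at 1347 and 1139 CPM. Prkag1 went the other way, with its highest values there, 43.8 and 44.1 CPM. The muscle of mouse 531 (WT) had the highest Myh2 (1490 CPM) and a Prkag3 of 70.7 CPM. The muscle with the lowest Myh2 (30.3 CPM, mouse 528, WT) had 86.0 CPM of Prkag3. Muscle 611 also had 178 CPM of the fat cell gene Adipoq, the second highest value after mouse 561 (235 CPM). The part of fibre and fat cell content in the member values was not tested.

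The genes whose levels were most like those of each member were named by Pearson's r of log2 CPM, centred on the genotype mean, in the tissue with the higher level. Prkag3 was most like Ampd1, the muscle AMP deaminase, over 22 muscles (r = 0.91, rho = 0.84, and r = 0.84 without the 2 muscles farthest out), then Plcd4 (r = 0.91) and Tmem233 (r = 0.90). Prkab2 was most like 5730455P16Rik (r = 0.96), Reep1 (r = 0.95) and Hif1an (r = 0.94), and Prkaa2 was most like Msrb3 (r = 0.93), Ogt (r = 0.93) and March6 (r = 0.91). The latter fell to 0.84, 0.79 and 0.73 without the 2 muscles farthest out. Stk11 was most like Gga1 (r = 0.93), Ppp1r37 and Tmem115 (r = 0.92 each), which stayed at 0.92 or above without 2 muscles. Prkag1 was most like Ndufb10, a subunit of mitochondrial complex I (r = 0.76), Samm50 (r = 0.76), part of the mitochondrial outer membrane assembly machinery, and Idh3b (r = 0.75), a subunit of the citrate cycle enzyme isocitrate dehydrogenase. Without the 2 muscles farthest out, these fell to 0.65, 0.70 and 0.67. Prkaa1 was most like 4921531C22Rik (r = 0.77), Fam129a (r = 0.75) and Kcnab2 (r = 0.74). Over the 18 livers that were not low-slope, Prkab1 was most like Snrpert (r = 0.88), Ostf1 (r = 0.85) and Fzd1 (r = 0.83), Prkag2 most like Sdhb (r = 0.76), Mpc1-ps (r = 0.75) and Trex1 (r = 0.73), and Camkk2 most like Tug1, Kin (r = 0.80 each) and Gatm (r = 0.79). Without the 2 livers farthest out, the values for Prkag2 were 0.74, 0.49 and 0.72. The genes named here are descriptions picked as the highest of 13265 genes in muscle and 13209 in liver. The libraries differed in depth, and the part of depth and RNA quality in these values was not tested.

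The other genes of the pathway were taken from a list of 70, of which 69 were tested between tissues. In WT mice 31 were called higher in muscle (44.9%, against 27.6% of all genes) and 16 higher in liver (23.2%, against 29% of all genes), with a median log2 difference of 0.75 against -0.005 over all genes. In KO mice 33 (47.8%, against 27.8% of all genes) and 15 (21.7%, against 28.9%) were called. The largest differences towards muscle were Ampd1 at 14.25 and Ak1 at 11.82 on the log2 scale, which handle AMP, and muscle glycogen synthase Gys1 at 7.28. Ampd1 and Ak1 gave few or no reads in liver, so that their values depend on the small count added. The most Ampd1 reads in liver, 9 and 8, were in mice 516 and 532, whose livers had the highest myofibre marker sums. Towards liver they were the liver glycogen synthase Gys2 at -8.71, the liver form of the fatty acid carrier enzyme Cpt1a at -5.52 and the adenylate kinase Ak4 at -3.92. KO mice had the same leading genes towards muscle and Gys2, Cpt1a and the AMPK-related kinase Nuak2 (-3.95) towards liver. The groups of the list are small, and the same shares of all genes, 27.6% towards muscle and 29% towards liver, apply to them. All 7 genes of AMP handling were called in WT mice, 3 towards muscle and 4 towards liver. Of the LKB1 complex 3 of 4 were higher in muscle and 1 in liver, and of the substrates in growth, autophagy and mitochondria 7 of 11 were higher in muscle and 0 in liver. Of the 3 phosphatases 0 were called, and of the 11 AMPK-related kinases 3 were higher in muscle and 1 in liver.

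Between genotypes 0 pathway genes were called in either tissue. In liver 65 were tested and 4 had an unadjusted p under 0.05 (6.15%, against 12.9% of all genes). The smallest p values belonged to Acaca, which encodes acetyl-CoA carboxylase 1, at -0.29 (SE 0.09, adjusted p = 0.38), the lipogenic regulator Srebf1 at -0.25 and the kinase Mark2 at -0.18 on the log2 scale. Without the low-slope mice 1 gene of the list had such a p, where 2.96% of all genes did. In muscle 68 were tested and 7 had an unadjusted p under 0.05 (10.3%, against 8.64% of all genes), with the smallest for Hdac5 at -0.18 (SE 0.05, adjusted p = 0.49), the LKB1 complex gene Cab39l at 0.11 and Mlxipl at -0.13. In the test of the difference between tissues 0 of 69 were called and 6 had an unadjusted p under 0.05 (8.7%, against 16.2% of all genes), with the smallest for Acaca at 0.42, Mlycd at -0.28 and Cab39l at 0.16.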

How the data were processed

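RNA-Seq libraries of liver and skeletal muscle from 11 WT and 11 KO mice (44 libraries, 85 bases, single-end) were grouped by tissue and genotype as labelled, and 0 columns were left unmapped. The authors deposited raw read counts per gene over 38202 genes, without normalization. The second deposited table holds RPKM, in which the authors scaled reads to transcript length and to the size of the library. Aligner, counting program, genome build and annotation are not given in the sources used here. Per the labels limma was among the tools. Symbols were matched for 36340 genes.

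Counts were tested in R 4.3.3 with edgeR 4.0.16 (TMM, filterByExpr, quasi-likelihood F-test, two-sided, Benjamini-Hochberg adjustment over all tested genes, threshold 0.05, with at least 2-fold between tissues). Genotypes were compared over the 22 libraries of a tissue, tissues and the interaction over all 44. Shares were taken on RPKM, because levels of different genes are comparable only per length, and were not tested. Alternatives were DESeq2 1.42.0, limma-voom (limma 3.58.1), library size and upper quartile scaling, no filter, at least 10 counts in every library, removal of each library's loess on gene length (span 0.3), the animal as a block, omission of the low-slope mice, and other lengths or a pseudocount of 0.1 RPKM for shares. The fits were tested on simulated data.

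The same animal number marks the same mouse, which pairs the tissues. The mean correlation of deviations was 0.07 over 22 pairs from the same mouse and -0.007 over 220 pairs of different mice. No 2 libraries held identical counts (0 of 220 pairs within groups), and the smallest chi-square per gene between such pairs was 4.47. The members and gene lists were chosen with earlier results of these data known. All members are named, as are the pathway genes with the 3 largest changes in each direction among those called, or otherwise the 3 smallest p, and the 3 genes most like each member by Pearson's r (prior count 2).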

Additional observations from a re-analysis of the deposited data

Results flagged for a closer look

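The effect of genotype differed between tissues for Slc16a13, the deleted gene, by the test of the interaction. The log2 fold change between KO and WT was 6.08 higher in muscle than in liver (SE 0.38, adjusted p = 5.9e-16, edgeR quasi-likelihood test), with -5.45 in liver and 0.64 in muscle (adjusted p = 0.49). The mean count in muscle was 12.4 reads in WT libraries and 19.8 in those labelled KO, and the cause was not tested. None of the 9 AMPK genes differed in this test.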

How the results depend on the processing

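Leaving out low-slope mice, blocking or changing the test did not change the number of members called between tissues by more than 1.5 times. With the trend on gene length removed, 1 member was called higher in liver in WT mice and 1 in KO mice, and with upper quartile scaling, which moved the median of all genes by 0.25 in WT and 0.23 in KO mice, 1 in KO mice. The genes lost were Prkab1 and Prkag2. Prkaa1 in WT mice turned to -0.0715 with the trend on gene length removed. Prkag3 was removed by the minimum of 10 counts in every library and had no value there. With the animal as replicate block (paired tissues), 3 members were called higher in muscle and 3 in liver in WT and in KO mice, and 0 in the interaction, so the block changed no call of a member. Of 359 alternative values of single members, 336 kept sign and side of the threshold, 11 lost the call and 12 had the opposite sign, among them 1 (Prkaa1 in WT mice) whose reported value had passed. The other 11 had not passed in either setting. In liver, KO against WT, the log2 fold change turned without the low-slope mice to 0.0199 for Prkaa1, 0.0144 for Prkag2, 0.0105 for Camkk2, -0.000326 for Prkag1 and -0.058 for Stk11. With the trend on gene length removed it turned to 0.109 for Camkk2, -0.0277 for Prkab1 and -0.00368 for Prkag1 in liver and to -0.00171 for Prkab2 in muscle. With library size scaling it turned to -0.0156 for Prkab1 in liver, and the interaction to 0.0367 for Camkk2.

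Shares moved by over 1 SD mainly when counts were not divided by length. The median α2 share was then 83.8% in WT liver, 82.4% in KO liver, 94.8% in WT muscle and 94.9% in muscle labelled KO. The β2 share was 16.3%, 13.03%, 98.6% and 98.7% in the same order. The γ1 share was 55.7%, 55.8%, 31.03% and 30.9%, the γ2 share was 44.01% in WT and 44.03% in KO liver, and the γ3 share was 60.6% in WT muscle and 59.9% in muscle labelled KO. With 1 fixed length per gene, WT liver had 60.95% γ1 and 38.8% γ2, and WT muscle 8.55% γ2. With 0.1 RPKM added, the γ3 share was 0.346% in WT and 0.324% in KO liver. The order of isoforms within each subunit was kept in each of these.

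Depth limits statements on Prkag3 in liver (0 to 6 reads) and on Camkk2 in muscle (43 to 152 reads). Each library is a separate mouse, and intervals on summed reads cover counting error only.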

Other observations

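Other groups of the AMPK pathway list were also compared between liver and muscle of WT mice, where 27.6% of all genes were called higher in muscle and 29% higher in liver. Of the 9 substrates in glucose metabolism 5 were called higher in muscle and 2 in liver, with a median log2 difference of 2.97. Of the 7 substrates in lipid metabolism 3 were called in each direction (median -0.36), and of the 8 upstream sensors and receptors 3 in each direction (median -0.31). Of the 4 ubiquitin enzymes acting on the complex 2 were higher in muscle and 1 in liver. Fatty acid entry into mitochondria showed opposite isoforms, with Cpt1b at 5.51 (SE 0.15) and Cpt1a at -5.52 (SE 0.12) on the log2 scale. Cpt1b was chosen after its values were seen.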
